A study of Mus musculus with 8 samples.

Results

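Barx1, Sox9, Gata3, Nkx2-5, Six2, Osr1, Hand1 and Hand2 are transcription factor genes of the stomach mesenchyme, of the pyloric sphincter and of the visceral mesoderm around them. Their probes were taken by gene symbol, and the set of genes was drawn up with earlier results of these data known. The 8 genes are 8 of the 19057 genes named on the array and had 10 of its 45281 probes, 2 each for Barx1 and Sox9 and 1 for every other gene. All 10 probes were kept for testing, since each had a detection p under 0.01 on at least 4 of the 8 arrays, as did 17440 probes in all.

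RNA was measured on Illumina MouseWG-6 v2 BeadChips in gut cells of E12.5 mouse embryos (strain C57BL/6J;129) sorted by FACS for EGFP, which reports activity of the Bapx1 locus. The 4 wildtype samples carried 1 targeted allele (Bapx1 +/tm2.Tlu), in which an IRES and EGFP lie in the 3′UTR of an intact Bapx1 gene. The 4 Bapx1 null samples carried the targeted allele on both chromosomes (tm4.Tlu/tm4.Tlu), in which EGFP follows the start codon and part of the coding sequence is deleted. The number of EGFP alleles therefore differed together with the genotype. The sort was on EGFP driven by the Bapx1 promoter, although genes of liver and blood were also detected on the wildtype arrays. The 4 samples of each genotype were described as biological replicates, and how many embryos each sample pooled is not given in the sources used here.

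The pyloric sphincter is a ring of smooth muscle that closes the stomach toward the duodenum, and it forms from mesenchyme that a small set of transcription factors marks out before muscle appears. Bapx1 (Nkx3-2) is a homeobox gene of the caudal stomach mesenchyme, and mouse embryos without it lose the pyloric constriction. Barx1 marks the stomach mesenchyme and acts through secreted Wnt antagonists, Six2 marks the caudal stomach, and Nkx2-5, Gata3 and Sox9 mark the sphincter mesenchyme, where Sox9 lies downstream of BMP signalling in chick and of Nkx2-5 and Gata3 in mouse. The comparison asks whether the levels of these regulators differ in Bapx1-expressing gut cells when Bapx1 itself is disrupted.

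The targeted gene was read first. Nkx3-2 probe ILMN_2687592 was not well above background on any wildtype array and was detected on every Bapx1 null array, where its log2 intensities were 6.75, 7.56, 6.65 and 6.46. The Bapx1 null signal exceeded that of wildtype at least 2.79-fold (limma adjusted p = 0.0139), and at least 2.47-fold for the other probe (limma adjusted p = 0.0139). Such a bound divides the brighter group's mean by a floor, which on each dim array is the lowest value of any detected probe, or the probe's own value where that is higher. Both probes were kept through Bapx1 null alone, so their differences are a description and their p values are not read as support. Where the 2 probes lie relative to the inserted cassettes was not analysed, so their signal does not check the genotypes, and it ran opposite to a loss of transcript. Wildtype and Bapx1 null below mean the samples so labelled.

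Signal differed between the arrays. Wildtype arrays detected 38.2 to 40% of probes and Bapx1 null arrays 31 to 38.5%, with Bapx1 null replicate 2 lowest. The first principal component (60.1% of the variance) set Bapx1 null replicates 2 and 3 (84.8 and 50) far from all others. The genotypes did not overlap on it either, with wildtype at -36 to -24.7 and Bapx1 null at -14.2 to 84.8. At the 75th percentile, raw intensity was between 184 and 249 units in wildtype arrays and between 91.3 and 210 units in Bapx1 null arrays. In bulk RNA fewer cells of a type and less RNA per cell cannot be told apart.

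None of the 10 probes passed an adjusted p of 0.05 in either direction, where 0.47% of all kept probes did (82 probes, 0.315% higher and 0.155% lower in Bapx1 null). Without adjustment 5 of the 10 had a p under 0.05, against 25.8% of all kept probes. Of these, both probes of Barx1 and that of Osr1 were higher in Bapx1 null, and Gata3 and the dimmer Sox9 probe were lower. That Sox9 probe was kept through wildtype alone, so its p is not read as support, and Barx1 was counted with both probes. The genes were also chosen with earlier results known, so 5 of the 10 is not read as an excess over all kept probes. In 1 of the 10 probes the genotypes did not overlap, against 17.1% of all kept probes (9.96% with Bapx1 null above, 7.18% below). The difference was above 0 for 6 of the 10 probes and for 51.2% of all kept probes. The tool throughout was limma, with p values adjusted over all 17440 probes, and differences are Bapx1 null minus wildtype in log2 intensity, with the standard error (SE) of the fit.

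**Figure D1:**
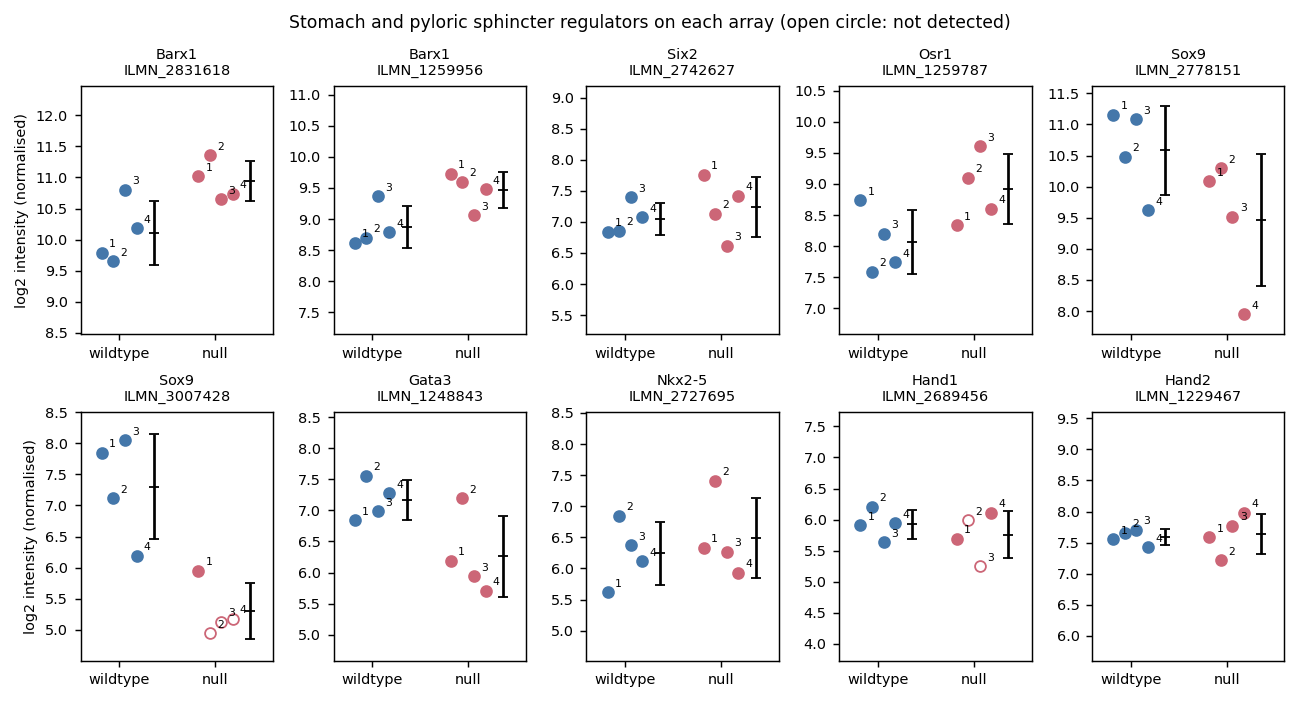
Normalised log2 intensity (y axis, centred for each panel and of equal span) of the 10 probes on each of the 4 wildtype (blue) and 4 Bapx1 null (red) arrays, numbered by replicate, with mean and SD as bars and open circles where the probe was not detected. The 4 Bapx1 null points of Sox9 probe ILMN_3007428 lie below the 4 wildtype points, and in every other panel the genotypes overlap.

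Barx1 is the homeobox gene that gives the stomach mesenchyme its identity and steers the overlying epithelium toward a gastric fate in mouse. Its brighter probe ILMN_2831618 was at 9.79, 9.65, 10.80 and 10.18 on wildtype replicates 1 to 4 and at 11.02, 11.36, 10.65 and 10.74 on Bapx1 null replicates 1 to 4. Wildtype replicate 3 was the only wildtype array to reach the Bapx1 null range, and it lay above the lowest 2 Bapx1 null arrays. The means were 10.1 ± 0.51 and 10.9 ± 0.32 (SD, n = 4), a difference of 0.84 ± 0.26 (SE, 1.79-fold higher in Bapx1 null, 95% interval 0.25 to 1.43, limma adjusted p = 0.143).

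The other Barx1 probe, ILMN_1259956, gave the same picture at lower signal. It was at 8.62, 8.70, 9.37 and 8.79 in wildtype and at 9.73, 9.60, 9.06 and 9.48 in Bapx1 null, a difference of 0.60 ± 0.21 (SE, limma adjusted p = 0.147). Here too only wildtype replicate 3 entered the Bapx1 null range, where it exceeded Bapx1 null replicate 3. Before background correction and normalization the brighter probe read 1307, 956, 1800 and 1443 units in wildtype and 1961, 1436, 1659 and 2030 units in Bapx1 null, so that the genotypes overlapped more widely. With no normalization between arrays the difference was 0.40, but all kept probes then moved by a median of -0.52 (0.01 after normalization), and relative to that median Barx1 was at 0.92 against 0.83 in the main setting.

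Sfrp1 and Sfrp2, secreted Wnt antagonists that act with Barx1 in the stomach mesenchyme of mouse, differed little between the genotypes. Sfrp1 differed by -0.04 (limma adjusted p = 0.886) and Sfrp2 by -0.37 (limma adjusted p = 0.51), both detected on every array.

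Six2 encodes a homeobox factor of the caudal stomach that is required for a normal pyloric sphincter in mouse. Probe ILMN_2742627 was at 6.84, 6.86, 7.40 and 7.08 in wildtype and at 7.76, 7.13, 6.62 and 7.42 in Bapx1 null. Bapx1 null held both the highest and the lowest array. The difference was 0.19 ± 0.24 (SE, limma adjusted p = 0.616), with a 95% interval of -0.36 to 0.74, and leaving out Bapx1 null replicate 1 gave 0.02 and leaving out replicate 3 gave 0.39. Eya1, whose protein is a known partner of Six2, was detected by 1 of its probes on every wildtype array and on no Bapx1 null array, with a wildtype signal at least 1.03-fold above Bapx1 null, and its other 3 probes were not detected on any array. That Eya1 probe was kept through wildtype alone, so its difference is a description.

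Sox9, an HMG-box factor of the sphincter mesenchyme and of cartilage, was lower in Bapx1 null on both of its probes without passing the test on either. Probe ILMN_2778151 was at 11.16, 10.48, 11.08 and 9.62 in wildtype and at 10.09, 10.30, 9.52 and 7.95 in Bapx1 null. Replicate 4 was the lowest array of each genotype, and wildtype replicate 4 lay below 2 of the Bapx1 null arrays. The means were 10.6 ± 0.71 and 9.47 ± 1.06 (SD, n = 4), a difference of -1.12 ± 0.52 (SE, limma adjusted p = 0.202) with a 95% interval of -2.27 to 0.04.

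The second Sox9 probe, ILMN_3007428, was dimmer and lay at background in most Bapx1 null samples. It was at 7.85, 7.12, 8.05 and 6.19 in wildtype, detected on all 4 arrays, and at 5.95, 4.95, 5.13 and 5.18 in Bapx1 null, detected on replicate 1 only. Every Bapx1 null array lay below every wildtype array, by 0.24 at the closest. The difference of -1.998 ± 0.39 (SE, limma adjusted p = 0.0673) includes values at background, so its size is not defined. Because this probe passed the detection filter only through wildtype, its difference and its separation are given as a description, and no call on it in any setting is read as support.

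Sox9 was the most variable of these genes within a genotype. On the raw scale the brighter probe ran from 1012 to 3159 units in wildtype and from 345 to 1037 units in Bapx1 null, so that before normalization a single wildtype array, replicate 4, reached into the Bapx1 null range. Col2a1, the main collagen of cartilage and a direct Sox9 target in chondrocytes, was chosen for display after its values were seen. It was at 10.35, 8.18, 9.66 and 7.48 in wildtype and at 8.24, 7.64, 6.67 and 5.56 in Bapx1 null, a difference of -1.89 (limma adjusted p = 0.154). In wildtype the order of the 4 arrays was the same for the brighter Sox9 probe and Col2a1, and in Bapx1 null replicates 3 and 4 were the lowest for both. The other kept cartilage genes did not all follow. Col9a1 and Col9a3 shared the wildtype order, but Sox6 was lowest on wildtype replicate 1 (6.06) and highest on replicate 4 (6.64). In Bapx1 null Col9a1 was lowest on replicate 2 (9.02), and Sox5 was higher there than in wildtype by 0.29. Of 12 cartilage genes 6 were kept, none passed the threshold, 5 were lower in Bapx1 null, and their median difference was -0.82 against 0.01 for all kept probes. Their summed intensity was 2470 to 4200 units in wildtype and 1750 to 2500 in Bapx1 null, while Acan, Matn1, Matn3, Col11a1, Cnmd and Snorc were not detected on any array. The part of cartilage cells in the Sox9 difference was not tested.

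Gata3 encodes a zinc-finger factor of the sphincter mesenchyme that is needed for the pyloric muscle in mouse, and it is also made by sympathetic neurons, nephric duct and lymphoid cells. Probe ILMN_1248843 was at 6.84, 7.56, 6.99 and 7.28 in wildtype and at 6.19, 7.20, 5.94 and 5.71 in Bapx1 null. Bapx1 null replicates 1, 3 and 4 lay below all wildtype arrays, and Bapx1 null replicate 2, the array with the fewest detected probes, lay among them. The means were 7.17 ± 0.32 and 6.26 ± 0.66 (SD, n = 4), a difference of -0.91 ± 0.31 (SE, limma adjusted p = 0.146) with a 95% interval of -1.60 to -0.22.

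Gata3 overlapped between the genotypes through 1 array after normalization and not in raw intensity. In raw intensity Gata3 read 213, 261, 171 and 231 units in wildtype and 102, 93.9, 86.4 and 98.1 units in Bapx1 null. Bapx1 null arrays tended to be dimmer, at 91.3 to 210 units against 184 to 249 at the 75th percentile. The share of all kept probes separated on the raw scale is not given here, so this separation is not read as a result. With no normalization between arrays the difference was -1.59 (limma adjusted p = 0.0493), which is -1.08 relative to the median of all kept probes in that setting, and without Bapx1 null replicate 2 it was -1.22 (limma adjusted p = 0.0432). Array weights, which give a deviating array less influence, gave -1.07 (limma adjusted p = 0.0394), but they also raised the calls over all kept probes from 82 to 313. These were 3 of 22 alternatives, and in the other 19 Gata3 did not pass. Over all 22 its difference ran from -1.62 to -0.66, with a limma adjusted p of up to 0.318.

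Lists of neural crest, nephric, and blood and endothelium genes stood as follows. Their genes are not specific to cells that make Gata3, and the blood list holds platelet, red cell and macrophage genes. Of the enteric and sympathetic neural crest list 5 of 11 genes were kept, none passed, 3 were higher and 2 lower in Bapx1 null, and the median difference was 0.05. The endothelin receptor gene Ednrb differed by 0.38 on its brightest probe and by -0.17 on another, whereas the neuronal gene Elavl4 differed by -0.65 and was detected on 4 wildtype arrays and 1 Bapx1 null array. The noradrenergic enzymes Th and Dbh were not detected on any array. Of the nephric list 3 of 6 genes were kept, none passed, and 1 was higher (Gdnf, 0.58, limma adjusted p = 0.167) and 2 were lower, with a median difference of -0.11. The nephric genes Pax2, Pax8 and Lhx1 were not detected on any array. Of the blood and endothelium list 8 of 11 genes were kept and all 8 were lower in Bapx1 null. The platelet gene Pf4, detected on every array, fell (-3.29, limma adjusted p = 0.0362). Ppbp, another platelet gene, was kept through wildtype alone and was brighter there by at least 5.32-fold. The summed intensity of the list was 3090 to 7140 units in wildtype against 520 to 1470 in Bapx1 null, with the leukocyte marker Ptprc not detected on any array. The part of blood cells in the Gata3 difference was not tested.

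Nkx2-5, the homeobox gene of the heart field that also marks the sphincter mesenchyme, was close to background. Probe ILMN_2727695 was at 5.62, 6.85, 6.37 and 6.12 in wildtype and at 6.33, 7.41, 6.27 and 5.93 in Bapx1 null. The genotypes overlapped over most of their range, with Bapx1 null replicate 2 highest. The difference was 0.24 ± 0.34 (SE, limma adjusted p = 0.651), with a 95% interval of -0.52 to 1.01, and it was -0.07 without Bapx1 null replicate 2. Of 7 heart muscle genes only Actc1 was kept (-0.56, limma adjusted p = 0.232), and Myh6, Myh7, Tnni3, Nppa and Mybpc3 were not detected on any array.

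Gata3 and Nkx2-5 act side by side in the mouse sphincter, and within each array their signals can be set against each other so that the scaling of the array largely cancels. The log2 ratio of Gata3 to Nkx2-5 was 1.22, 0.71, 0.63 and 1.16 on the wildtype arrays, compared with -0.14, -0.21, -0.32 and -0.21 on the Bapx1 null arrays. Wildtype arrays spread over 0.59 units and Bapx1 null arrays, the deviating replicates 2 and 3 included, over 0.18 units, with no overlap. In Bapx1 null, however, both probes were close to background, at 86.4 to 102 raw units for Gata3 and 100 to 109 for Nkx2-5. A background shared by both probes does not cancel and draws their ratio toward 0, so the narrow Bapx1 null spread is not read as a result. The mean ratio was 0.93 ± 0.30 against -0.22 ± 0.08 (SD, n = 4), a difference of -1.15, and -1.20 with no normalization between arrays.

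This ratio was picked after all 28 ratios among the 8 genes had been seen, and it gets no test. The genotypes did not overlap in 4 of the 28 ratios (14.3%), against 18.3% of the ratios among all 9784 genes, and in 7 (25%) against 17.7% with no normalization between arrays, so separated ratios as such were not particular to these genes. Besides Gata3 to Nkx2-5, the separated ratios were Barx1 to Sox9, which was -1.37 to 0.56 in wildtype and 0.93 to 2.79 in Bapx1 null, Barx1 to Gata3, which was 2.09 to 3.80 and 4.16 to 5.03, and Osr1 to Sox9, which was -2.89 to -1.88 and -1.75 to 0.65. All 4 were separated under both scalings. A ratio shows that 2 probes changed unequally and not which of them changed.

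Osr1 encodes a zinc-finger factor of the intermediate and foregut mesoderm. Probe ILMN_1259787 was at 8.74, 7.59, 8.20 and 7.74 in wildtype and at 8.34, 9.10, 9.61 and 8.60 in Bapx1 null. Wildtype replicate 1 exceeded Bapx1 null replicates 1 and 4, and the other wildtype arrays lay below all Bapx1 null arrays. The means were 8.07 ± 0.52 and 8.91 ± 0.56 (SD, n = 4), a difference of 0.84 ± 0.32 (SE, limma adjusted p = 0.158). The deviating Bapx1 null replicates 2 and 3 averaged 9.35 and replicates 1 and 4 averaged 8.47. The profile most like that of Osr1 was Eln, the gene of elastin.

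Hand2 and Hand1 encode bHLH factors of the lateral mesoderm, and Hand2 is also required in enteric neural crest. Hand2 (ILMN_1229467) was the steadiest of the 8 genes over all arrays after normalization, at 7.55, 7.66, 7.71 and 7.43 in wildtype and at 7.59, 7.22, 7.77 and 7.98 in Bapx1 null. In raw intensity it was less steady, at 253 to 321 units in wildtype and 94.8 to 349 in Bapx1 null, where replicate 2 was lowest. The normalized difference was 0.05 ± 0.18 (SE, limma adjusted p = 0.864), and its 95% interval of -0.35 to 0.45 is the narrowest among the 10 probes. Hand1 (ILMN_2689456) was at 5.91, 6.21, 5.64 and 5.94 in wildtype, detected throughout, and at 5.69, 5.99, 5.25 and 6.11 in Bapx1 null, detected on replicates 1 and 4 only. Its difference of -0.17 ± 0.21 (SE, limma adjusted p = 0.614) includes values at background.

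**Figure D2:**
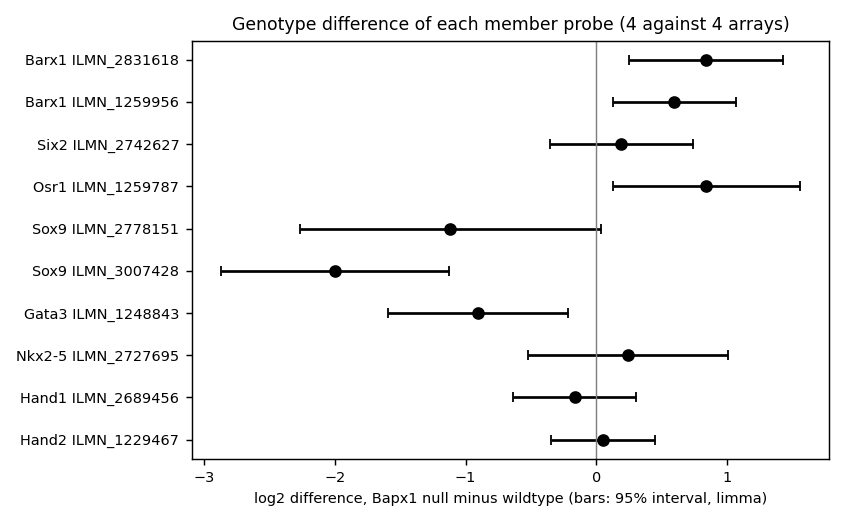
Log2 difference, Bapx1 null minus wildtype (x axis), of each of the 10 probes with its 95% interval from limma (4 against 4 arrays). The intervals of Barx1 (0.25 to 1.43 for the brighter probe), Osr1, Gata3 and the dimmer Sox9 probe leave out 0 before adjustment, and no probe passed after adjustment over all probes.

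The directions depended on the scaling for most of the small differences and not for most of the large ones. Both Barx1 probes and Osr1 stayed above 0, and Gata3 and the dimmer Sox9 probe below 0, in every alternative run. The brighter Sox9 probe was at 0.67 after scaling by the median absolute deviation (MAD), a setting that moved all kept probes by a median of 0.74, and at -0.07 relative to that median. Six2, Nkx2-5 and Hand2, with differences of 0.19, 0.24 and 0.05, were at 0.06, 0.12 and -0.06 with no normalization between arrays and at -0.31, -0.35 and -0.28 with MAD scaling, each relative to the median of all kept probes in that setting. Hand1, with a difference of -0.17, was at -0.2 and -0.98 on the same terms.

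**Figure D3:**
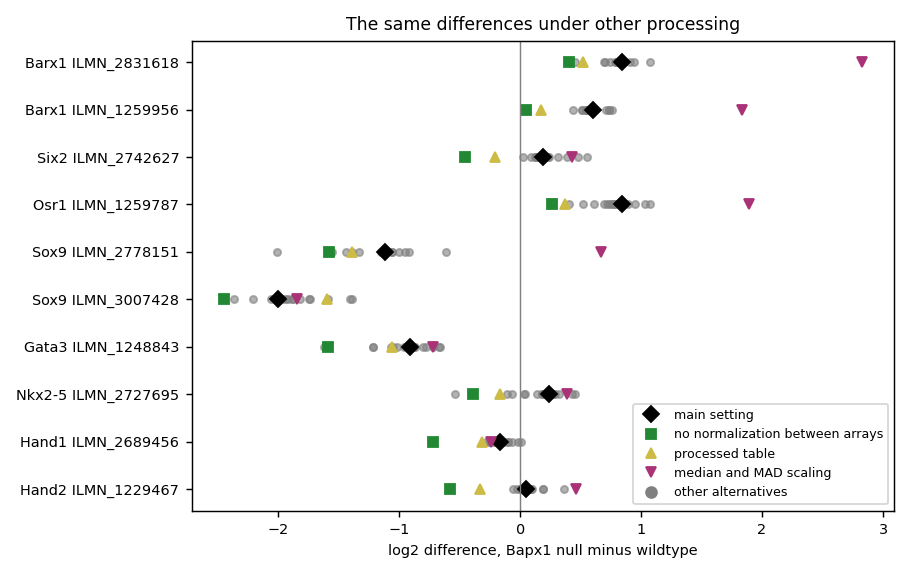
Log2 difference, Bapx1 null minus wildtype (x axis), of each probe in the main setting (diamond) and in each alternative (other symbols). Barx1, Osr1, Gata3 and Sox9 probe ILMN_3007428 keep their side of 0, and Sox9 probe ILMN_2778151 crosses it with MAD scaling (0.67). Six2, Nkx2-5 and Hand2 lie around 0, and Hand1 lies below 0 in 20 of its 21 alternatives (-0.72 to 0.0047). With no normalization all kept probes shifted by a median of -0.52, and with MAD scaling by 0.74.

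Likeness of profiles was measured as the root mean square distance between 2 log2 profiles over the 8 arrays, each with its own mean subtracted. Among the 8 genes it was smallest for Hand1 with Hand2 (0.38) and Six2 with Hand2 (0.39), and largest for Osr1 with Sox9 (1.23). Hand1 and Hand2 had flat profiles, with a root mean square of their own of 0.29 and 0.21, so their small distance says little of a shared pattern. The 3 nearest of all named kept genes were as follows. Med9 (0.22), Ccdc85b and Ptms were nearest to Barx1, Pak3 (0.13), Eva1a and Hoxa4 to Six2, Eln (0.21), Nfix and Igfbp7 to Osr1, and Ciart (0.17), Clec3b and Galnt15 to Nkx2-5. Mrc1 (0.25), Slco2b1 and Nxpe4 were nearest to Gata3. Grin3a (0.28), Ebf3 and Ntrk2 were nearest to Sox9. Hand1 was closest to Insr (0.13), Bet1 and Naa30, and Hand2 to Csnk1a1, Strip2 and Rapgef1.

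Over all 12 lists 4 of 79 kept genes passed the threshold, beside 0.47% of all kept probes. Among them Nkx3-2 and Ppbp were kept through a single genotype, and Tagln mainly through Bapx1 null. Of 23 further transcription factors of the stomach mesenchyme and pylorus 14 were kept, Nkx3-2 alone rose, none fell, 7 were higher and 7 lower, and the median difference was 0.00. Isl1, a LIM-homeobox factor that acts upstream of Gata3 in the mouse pylorus, differed by -0.22 (limma adjusted p = 0.564) with arrays of 11.64 to 12.12 in wildtype and 11.13 to 12.24 in Bapx1 null. Tbx3, a T-box repressor chosen after its values were seen, was -1.08 on its brighter probe (limma adjusted p = 0.0503) and -0.91 on the other, which passed (limma adjusted p = 0.0315).

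Of 28 signalling genes of the region 21 were kept and none passed, with 7 higher, 14 lower and a median of -0.06. Bmp4, the ligand that induces sphincter genes in chick, differed by 0.19 (limma adjusted p = 0.49) on its brighter probe and by -0.48 (limma adjusted p = 0.21) on the other, which was detected on 3 wildtype arrays and 1 Bapx1 null array. Its receptor Bmpr1b differed by -0.34 (limma adjusted p = 0.267). Grem1, a BMP antagonist regulated by Sox9 in the chick pylorus, was at 7.82, 7.19, 7.56 and 7.38 in wildtype and at 7.64, 7.28, 7.5 and 7.06 in Bapx1 null, a difference of -0.12 (limma adjusted p = 0.673). The genotypes thus overlapped for Grem1 over most of their range. The BMP antagonist Nog was not detected on any array. Fgf10 differed by 0.46 (limma adjusted p = 0.157), and by 0.42 and -0.13 on its other probes. Gli3, a transcription factor of hedgehog signalling, differed by 0.38 with all Bapx1 null arrays above wildtype (limma adjusted p = 0.144), but its other probe differed by -0.78 and was detected on a single Bapx1 null array.

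Smooth muscle genes, which the sphincter programme precedes, had larger differences than most of the regulators. Of 11 genes 9 were kept and all 9 were higher in Bapx1 null, with a median difference of 0.99 against 0.01 for all kept probes. In 7 of the 9 every Bapx1 null array lay above wildtype, against 9.96% of all kept probes. Cnn1 was not detected on any array. Only Tagln, detected on 1 wildtype and 3 Bapx1 null arrays, was past the threshold (0.97, limma adjusted p = 0.0425). It was kept mainly through Bapx1 null, so its p is not read as support and its size is not defined. Its other probe was not detected on any array. The summed intensity of the list was 13300 to 25900 units in wildtype and 40000 to 43000 in Bapx1 null. Gut and pancreas epithelium genes were lower (3 of 11 kept, none passed, 566 to 749 units against 760 to 1730), as were liver genes (5 of 6 kept, none passed, 216 to 457 units against 447 to 12300), with Epcam, Foxa2, Pdx1 and Alb not detected on any array. Of the spleen anlage list 2 of 5 genes were kept and none passed, 1 of them being Nkx2-5 itself and the other Tcf21 (0.45, limma adjusted p = 0.18), and Tlx1 was not detected on any array. Of the mesothelium list 4 of 7 genes were kept, none passed and the sums overlapped. The part of these cell types in the differences of the 8 genes was not tested.

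**Figure D4:**
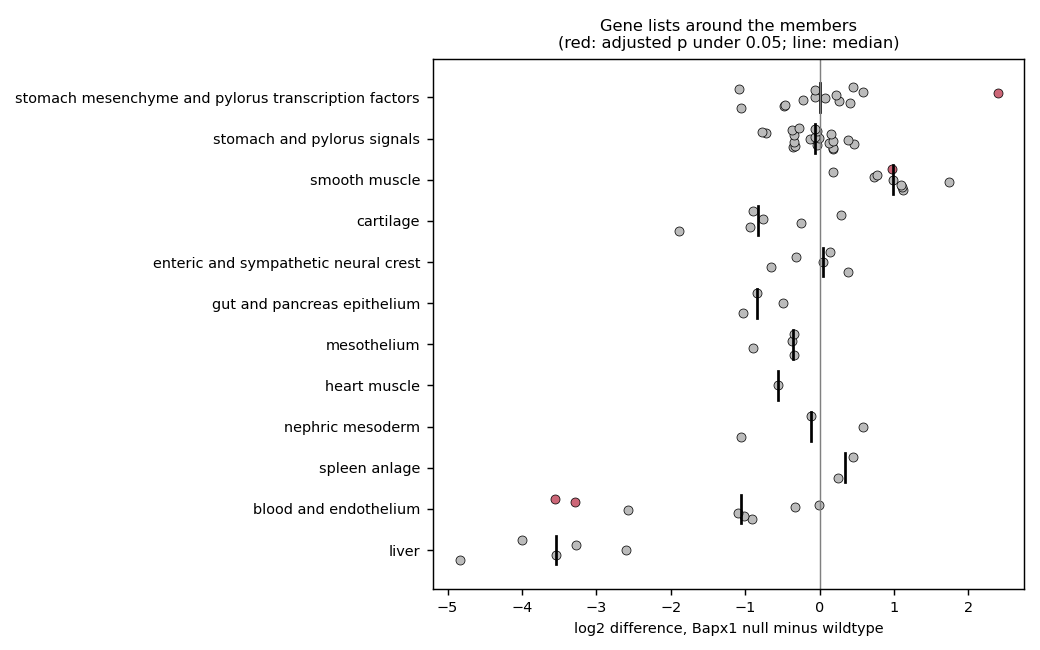
Log2 difference, Bapx1 null minus wildtype (x axis), of each kept gene (brightest probe) of 12 lists (y axis), in red where the limma adjusted p was under 0.05, with the list's median as a line. The transcription factor and signal lists centre on 0 (medians 0.00 and -0.06), smooth muscle lies to the right (0.99) and blood and liver to the left (-1.06 and -3.55). The differences of Nkx3-2, Ppbp and Eya1 are measured against a genotype at background, and that of Tagln against a genotype mostly at background.

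The promoters of the 8 genes were searched for the core letters that Nkx3 factors are known to bind, TAAGTG and TGAGTG, on both strands. The RefSeq promoter table (GRCm38.p6, 250 bases before to 50 after the start) held 5 of the 8 genes, all but Osr1, Sox9 and Hand1. A match occurred in 2 of these 5 and in 23.9% of all 32851 promoters of the table. The matches are shown with their flanks, since they are the only ones, and the capitals mark the 6 matching letters. They lie at chr17:26841729-26841758 (minus strand) for Nkx2-5 and at chr8:57320813-57320842 (plus strand) for Hand2, both in the orientation of the gene.

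Nkx2-5: aggtattttcttTGAGTGtgtctggctggg
Hand2: atcttatggttaTGAGTGgacaaccaatcc

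A match of letters is a description and not a binding site. Both genes that hold one, Nkx2-5 and Hand2, had small differences (0.24 and 0.05), and the promoters of Barx1, Six2 and Gata3 held none in this window.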

How the data were processed

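The authors deposited linear signal intensity for each probe (GenomeStudio export, version not given in the sources used here), neither background subtracted nor normalized, beside a detection fraction near 1 for bright probes, read as 1 minus the detection p. They also deposited log2 values relative to each array's median and to a probe baseline of unknown origin, used as an alternative. The 45281 rows of both tables were joined on differences between arrays, and probes named from the platform annotation. Intensities were corrected with limma 3.58.1 in R 4.3.3 (nec, offset 16), quantile normalized and log2 transformed. Probes with a detection p under 0.01 on at least 4 arrays were fitted by limma with genotype as the only term and Benjamini-Hochberg adjustment over all 17440. The fit was tested on simulated data. Lists used each gene's brightest kept probe.

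The 8 genes and the lists were chosen with earlier results of these data known. Named genes were the 8 genes, Nkx3-2, genes of the pylorus programme fixed by name, list members past the threshold or with the smallest p, and the 3 nearest profiles. The number of arrays limits the precision. Probe positions were not analysed. Alternatives were other background corrections, scalings, filters and tests, array weights, a detection covariate, a replicate block and leaving out arrays.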

Additional observations from a re-analysis of the deposited data

Results flagged for a closer look

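Over the probes of the genes named here, 138 groups of 4 arrays were checked for an array far from the other 3, and 6 were flagged, none of them for the 8 regulators. Chance flags about 1 in 20 groups. Fgf10 was low on wildtype replicate 1 for 2 of its 3 kept probes, at 10.2 against 10.61 to 10.68 for ILMN_2982771 and at 9.49 against 10.02 to 10.13 for ILMN_2736497, whereas ILMN_1213777 was at 6.2 there and at 6.19 to 6.44 on the others. Bapx1 null replicate 2 was high for 3 probes that were not well above background on any array of that genotype, Sox6 ILMN_2702322 at 5.07 (others 4.41 to 4.48), Elavl4 ILMN_1212745 at 5.37 (4.43 to 4.57) and Ednrb ILMN_2717765 at 4.96 (4.47 to 4.55). Nog, likewise not detected, was at 4.77 on wildtype replicate 4 (others 4.63 to 4.64).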

How the results depend on the processing

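The 10 probes gave 0 calls in the main setting, 2 with no normalization between arrays (Gata3 and Sox9 ILMN_3007428), 1 with array weights (Gata3, -1.07) and 0 to 1 on leaving out single arrays (Gata3 without Bapx1 null replicate 2, Sox9 ILMN_3007428 without Bapx1 null replicate 4). Gata3 was then at -1.59 and -1.22, and Sox9 ILMN_3007428, kept through wildtype alone and read as no support, at -2.45 and -1.96. Leave-one-out ranges were 0.69 to 1.07 for Barx1 ILMN_2831618, 0.02 to 0.39 for Six2, 0.61 to 1.07 for Osr1, -1.22 to -0.72 for Gata3, -1.44 to -0.61 and -2.37 to -1.75 for the Sox9 probes, -0.07 to 0.45 for Nkx2-5, -0.28 to 0.0047 for Hand1 and -0.06 to 0.19 for Hand2. Values crossed 0 for Six2 (-0.46 unnormalized, -0.21 in the processed table), Nkx2-5 (-0.39, -0.17, -0.54 with detected percentage as a covariate, -0.11 without Bapx1 null replicates 2 and 3), Hand2 (-0.58, -0.33, -0.03 with cyclic loess) and Sox9 ILMN_2778151 (0.67 with MAD scaling). Without wildtype replicate 4 Hand2 was at -0.0021, and Hand1 crossed 0 only at its highest leave-one-out value (0.0047). All kept probes had a median of -0.52 unnormalized, -0.3 in the processed table and 0.74 with MAD scaling. Relative to these medians Six2 was at 0.06 and 0.08, Nkx2-5 at 0.12 and 0.13 and Hand2 at -0.06 and -0.03 in the first pair, and Six2 at -0.31, Nkx2-5 at -0.35, Hand2 at -0.28 and Sox9 ILMN_2778151 at -0.07 with MAD scaling. For the other settings the cause was not tested.

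Calls over all kept probes numbered 82, and 25 (3 higher, 22 lower) with no normalization, 0 with MAD scaling, 4 in the processed table (2 higher, 2 lower), 37 with no filter, 5 with the covariate, 313 with array weights and 125 without Bapx1 null replicates 2 and 3. A plain t-test between the genotypes was run on the values and filter of the main setting, not on the paper's own normalization and filter. It gave 0 calls after Benjamini-Hochberg and 3439 at an unadjusted p under 0.05, 412 of them over 2-fold. Among the 10 probes it gave 0 and 4. Leaving out single arrays gave 0 to 1972 calls, namely 0 for wildtype replicate 1 or 4, 11 for wildtype replicate 2, 25 for wildtype replicate 3, 9 for Bapx1 null replicate 3 and 1972 for Bapx1 null replicate 4. Calls among the list genes numbered 4, and 0 with MAD scaling or the t-test, 1 in the processed table, with no filter or with the covariate, 2 for probes detected on all 8 arrays, 11 with array weights and 0 to 20 on leaving out single arrays.

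Same-numbered samples did not deviate together (correlations of 0.14, -0.18, -0.01 and -0.17), so the numbers were not taken to pair the samples, and only replicate 1 correlated best with its own number. With the replicate as a block there were 32 calls (15 higher, 17 lower), 0 among the 10 probes and 2 among the list genes.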
